A study of Mus musculus with 2 samples.

Results

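The cells described here were 153 cells of 1 cell set that carried at least 3 UMIs of Ptgs2, the gene of cyclooxygenase-2. UMIs are short random tags, and each stands for 1 captured RNA molecule. The study captured innate lymphoid cells (ILCs), tissue lymphocytes that act without antigen receptors, from the skin of C57/BL6 mice with the 10x Genomics 5' kit. They were sorted as CD45+, Lin-, Thy1.2+ at postnatal day 1 and at postnatal day 14, with 1 library of each day and no treatment named in the labels. The number of animals behind a library is not given in the sources used here. Cell names in the deposited table end in _1 or _2, called set 1 and set 2 here, and no set was assigned to a day. The table held 5246 cells, of which 1471 belonged to set 1. Members were chosen by their Ptgs2 UMIs: they had to come from set 1, to have at most 10% mitochondrial UMIs, to hold fewer than 3 UMIs of the cycling genes Mki67, Top2a and Birc5 together, and to hold at least 3 UMIs of Ptgs2. They made up 15.5% of the 990 non-cycling kept cells of set 1 (13.3 to 17.9%, 95% exact interval). They were set against the 718 cells of set 1 that passed the same limits and had no Ptgs2 UMI. The 119 cells with 1 or 2 Ptgs2 UMIs were left between the groups.

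Cyclooxygenase-2 turns arachidonic acid, released from membranes by phospholipases, into the unstable prostaglandin H2. Separate synthases then make prostaglandin E2, prostaglandin D2, prostacyclin or thromboxane from it, and each acts through its own receptors. Ptgs2 is an inducible gene: its promoter carries sites for NF-kB, CREB and C/EBP factors, and its short-lived mRNA appears after inflammatory or growth signals, while Ptgs1 encodes the constitutive enzyme. In skin, prostaglandins act in inflammation, blood flow and hair growth. Group 2 ILCs (ILC2s), which depend on the transcription factors Gata3 and Rora, respond to alarmins of the epithelium with Il5, Il13 and Areg.

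All members came from 1 cell set without a replicate, and cells are not replicates, so no test was run between the groups, and every interval is a 95% interval of counting error alone. Members were deeper than the cells set beside them. They had a median of 10753 UMIs and 2641 genes, against 8696.5 UMIs and 2329.5 genes in Ptgs2 = 0 cells. The median mitochondrial share was 3.17% in members and 3.34% in Ptgs2 = 0 cells. Members held 1710801 UMIs in all and Ptgs2 = 0 cells 6426901. Across both sets 4 barcodes recurred, 1 of them that of a member, and Scrublet called 2 members doublets. The genes checked here mark lymphoid cells and do not tell ILCs from T cells. Rora had a UMI in all 153 members and in 671 Ptgs2 = 0 cells, Gata3 averaged 687 CPM (UMIs per 1000000 UMIs of the group) in members and 558 CPM in Ptgs2 = 0 cells, and Thy1, the sorted antigen, stood at 170 CPM in members and 209 CPM in Ptgs2 = 0 cells. Trbc2, a T cell receptor constant gene, had a UMI in 130 members and 626 Ptgs2 = 0 cells, and Cd3g in 118 members and 581 Ptgs2 = 0 cells.

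Ptgs2 lies on chromosome 1 from 150100031 to 150108227 on the plus strand (GRCm38). Its UMIs chose the members, and they are given as a description. The median member held 6 Ptgs2 UMIs, and the 3 highest cells held 77, 58 and 45. Of the members, 67 held 3 to 5 UMIs, 47 held 6 to 11 and 39 held 12 or more, including 15 with 20 or more. Most of the Ptgs2 RNA lay in few cells: members held 90.7% of the Ptgs2 UMIs of the 990 cells, and the 10 highest members held 27.5% of the members' share. Just inside the limit 20 members had exactly 3 UMIs, at 276 CPM together, and just outside it 38 cells had exactly 2, at 188 CPM. Relative to each cell's own depth, members lay between 173 and 23232 CPM with a median of 603 CPM. The highest of these values came from the shallowest member, with 1937 UMIs, of which 45 were Ptgs2. The highest cell below the limit reached 1089 CPM, so the groups overlapped once depth was taken into account.

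**Figure D1:**
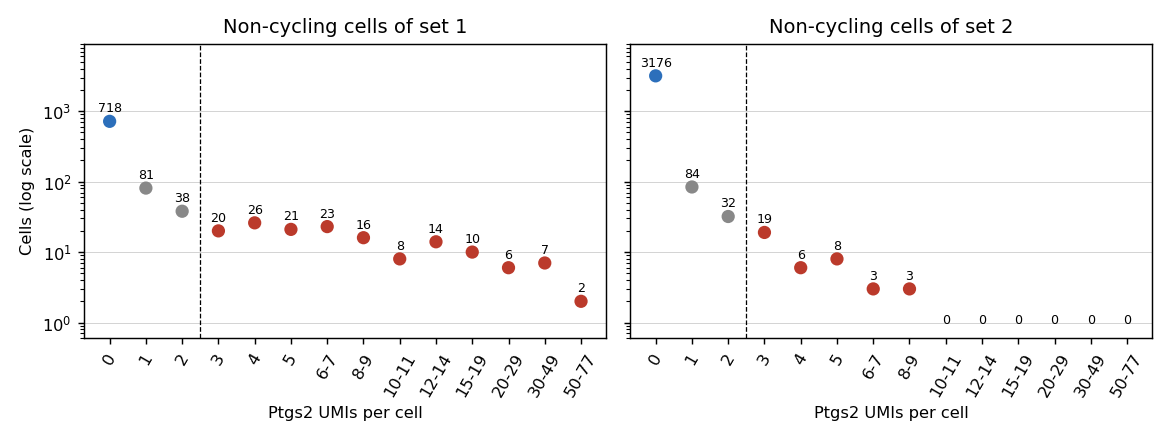
Non-cycling cells (log scale, each point labelled with its count) by Ptgs2 UMIs per cell in set 1 and set 2; the dashed line marks the limit of 3 UMIs, red points lie above it, the blue point holds cells at 0 and grey points the cells left between. Set 1 reached 77 UMIs in a cell and set 2 reached 9.

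Among cycling cells of set 1 the share with Ptgs2 had an interval that overlapped that of the others. At least 3 UMIs were found in 77 of 451 cycling cells, or 17.1% (13.7 to 20.9%). In set 2, 39 of 3331 non-cycling cells reached the limit, or 1.17% (0.834 to 1.60%). Set 2 was shallower, and on cells of at least 6949 UMIs thinned to that number the shares were 14.4% of 742 cells in set 1 (11.97 to 17.16%) and 1.81% of 441 cells in set 2 (0.786 to 3.54%).

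The promoters of Ptgs2 and of 4 genes whose RNA was higher in members are shown because they hold short sequences known to bind factors that act on inducible genes. Each runs 5' to 3' over 250 bases before and 50 after the start in RefSeq (GRCm38.p6). Capitals mark any of these letters on either strand: TGACGT, the core of the cAMP response element, TGACGTCA, its full form, which contains the core on both strands, GGAATTTCC, a kappaB sequence, TTGCGCAA, a C/EBP sequence, and TATAAA, the TATA box.
Ptgs2, chr1:150099781-150100080, plus strand: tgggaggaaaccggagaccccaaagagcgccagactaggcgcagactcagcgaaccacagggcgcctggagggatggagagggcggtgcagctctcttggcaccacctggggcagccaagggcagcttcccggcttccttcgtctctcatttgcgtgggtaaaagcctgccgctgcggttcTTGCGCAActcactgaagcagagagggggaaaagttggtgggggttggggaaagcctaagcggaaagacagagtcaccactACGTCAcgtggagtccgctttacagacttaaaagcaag
Cxcl2, chr5:90903649-90903948, plus strand: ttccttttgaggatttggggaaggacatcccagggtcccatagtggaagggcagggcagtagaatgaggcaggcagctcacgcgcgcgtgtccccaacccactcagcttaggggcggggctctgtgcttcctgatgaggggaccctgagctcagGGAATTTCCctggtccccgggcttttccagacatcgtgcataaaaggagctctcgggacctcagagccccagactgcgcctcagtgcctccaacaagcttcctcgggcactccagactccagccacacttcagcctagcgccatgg
Cxcl3, chr5:90785851-90786150, plus strand: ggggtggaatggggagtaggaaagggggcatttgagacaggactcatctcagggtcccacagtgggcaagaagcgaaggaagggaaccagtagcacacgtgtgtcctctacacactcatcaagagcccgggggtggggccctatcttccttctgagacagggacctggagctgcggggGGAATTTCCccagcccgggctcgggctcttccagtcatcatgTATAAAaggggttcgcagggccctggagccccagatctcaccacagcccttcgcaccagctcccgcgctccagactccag
Nfkbia, chr12:55492598-55492897, minus strand: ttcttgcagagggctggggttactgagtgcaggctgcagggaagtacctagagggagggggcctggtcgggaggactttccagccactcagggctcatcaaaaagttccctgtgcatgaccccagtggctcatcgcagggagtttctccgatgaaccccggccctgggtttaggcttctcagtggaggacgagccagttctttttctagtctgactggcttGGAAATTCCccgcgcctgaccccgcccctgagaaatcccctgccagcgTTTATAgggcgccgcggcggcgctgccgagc
Areg, chr5:91139349-91139648, plus strand: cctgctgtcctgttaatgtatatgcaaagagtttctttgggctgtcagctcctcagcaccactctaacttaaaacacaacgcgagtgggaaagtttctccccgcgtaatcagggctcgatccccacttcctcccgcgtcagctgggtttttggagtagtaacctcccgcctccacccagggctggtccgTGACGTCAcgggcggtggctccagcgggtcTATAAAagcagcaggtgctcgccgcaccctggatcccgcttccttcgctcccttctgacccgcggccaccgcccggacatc
The Ptgs2 window held 1 C/EBP sequence and, just after the start, 1 cAMP response core. The Cxcl2, Cxcl3 and Nfkbia windows each held 1 kappaB sequence, as did those of Cxcl1 and Tnfaip3, and the Areg window held the full cAMP response element and a TATA box. Among 27025 promoters of the table the kappaB letters occurred in 87, or 0.322%, the C/EBP letters in 0.185%, the full cAMP response element in 1.88%, its core in 7.64% and the TATA letters in 14.2%. Of 147 genes called higher in members that had a promoter in the table, 6 held the kappaB letters (Cxcl1, Cxcl2, Cxcl3, Nfkbia, Tnfaip3 and Icam1), against 24 of the 4897 measured genes, and 24 of 147 held the cAMP response core, against 14.8% of the measured genes. These letters were picked with the chemokine promoters in view, so the counts describe the windows and no more.

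Most genes differed by less than 1.5-fold between the groups. Of 6149 genes with at least 100 UMIs over both groups, 201 were at least 1.5-fold higher in Ptgs2-expressing cells on the scale of CPM + 10, which is 3.27% of them, and 112 were at least 1.5-fold lower, which is 1.82%. The median log2 ratio was -0.02. All ratios below are log2 ratios of CPM + 10 of Ptgs2-expressing over Ptgs2 = 0 cells of set 1, and a gene past 1.5-fold is called higher or lower. Since no replicate stands behind them, the call is one of size.

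The neutrophil-attracting chemokines Cxcl1, Cxcl2 and Cxcl3, neighbours on chromosome 5, were among the largest ratios on the higher side. Cxcl2 (90903871 to 90905938) summed to 2205 CPM in members (2135 to 2276) and to 408 CPM in Ptgs2 = 0 cells (392 to 424), a log2 ratio of 2.41 (2.34 to 2.48). Cell by cell, the quartiles of members lay at 0 and 15 Cxcl2 UMIs around a median of 2 and a highest cell of 399, while 509 of the 718 Ptgs2 = 0 cells had none and their highest had 342. At least 10 Cxcl2 UMIs were found in 58 members, or 37.9% (30.2 to 46.1%), and in 62 Ptgs2 = 0 cells, or 8.64% (6.68 to 10.9%). The overlap was wide, since 62 members had no Cxcl2 UMI. After thinning to 6949 UMIs, 54.2% of 142 members and 27.3% of 502 Ptgs2 = 0 cells had a Cxcl2 UMI. Cxcl3 stood at 188 CPM in members and 39.7 CPM in Ptgs2 = 0 cells (1.99, 1.78 to 2.20), with 36.1% of the members' UMIs in 1 cell and a ratio of 1.66 without the highest cell of each group. Cxcl1 stood at 39.7 CPM in members and 11.7 CPM in Ptgs2 = 0 cells (1.20, 0.86 to 1.52). It had no UMI in 136 members, and its ratio was 0.93 without the highest cell of each group.

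Genes of the NF-kB pathway, which carries alarmin and cytokine signals to the nucleus and also holds its own inhibitors, were called higher as a group. Of 15 measured genes 10 were called higher and none lower, with a median log2 ratio of 0.65 beside -0.02 over all genes. Rel, the c-Rel subunit, stood at 801 CPM in members (760 to 845) and 362 CPM in Ptgs2 = 0 cells (348 to 377), a log2 ratio of 1.12. Tnfaip3, the inhibitor A20, stood at 843 CPM in members and 422 CPM in Ptgs2 = 0 cells (0.98, 0.89 to 1.08). The median member held 7 UMIs of Tnfaip3 and 7 of Rel, against 2 of each in Ptgs2 = 0 cells. Nfkbiz, an atypical inhibitor that also switches on secondary genes, stood at 332 CPM in members and 165 CPM in Ptgs2 = 0 cells (0.97), and the adaptor Traf1 at 265 CPM in members and 139 CPM in Ptgs2 = 0 cells (0.89). Nfkbia, which encodes the inhibitor IkB alpha and was picked after its values were seen, stood at 2308 CPM in members and 1268 CPM in Ptgs2 = 0 cells (0.86, 0.80 to 0.91). It reached 10 UMIs in 74.5% of members and in 35.8% of Ptgs2 = 0 cells. Zc3h12a, the nuclease Regnase-1, which degrades inflammatory mRNAs, had a log2 ratio of 1.05.

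Other fast-responding genes were less uniform. Of 22 measured early response genes 6 were called higher and 1, Klf2, lower, with a median of 0.36. Ier5 (0.90), Maff (0.87) and Nr4a3 (0.74), a nuclear receptor induced by cell activation, had the largest ratios on the higher side. Klf2, a factor of resting and circulating lymphocytes, summed to 13.4 CPM in members and 45.0 CPM in Ptgs2 = 0 cells, a log2 ratio of -1.23 (-1.59 to -0.84). No member held more than 2 Klf2 UMIs, while the highest Ptgs2 = 0 cell held 27. Of the calcium and cAMP response genes 2 of 11 were called higher, Gem (0.80), a small GTPase, and Cd69 (0.68), an early activation antigen, and none lower. Of the MAPK phosphatase and RNA decay genes 3 of 14 were called higher and none lower, with Dusp10 at 0.89 and Dusp5 at 0.71 beside Zc3h12a.

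**Figure D2:**
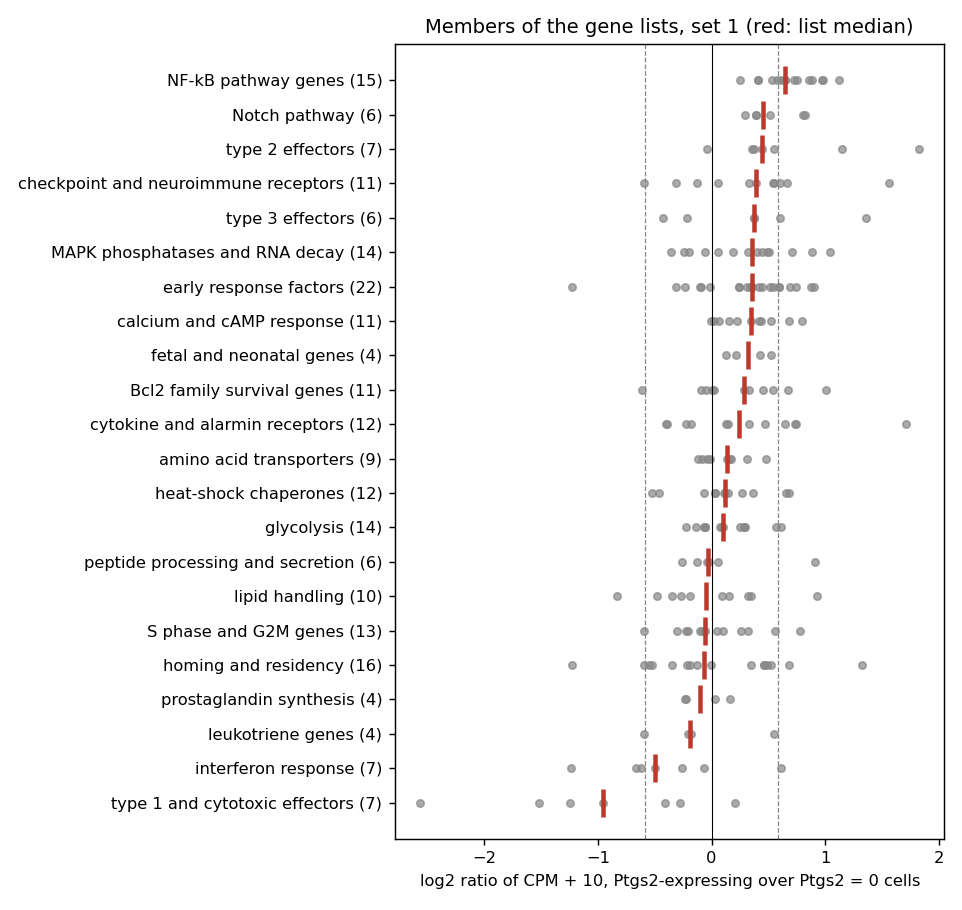
Log2 ratio of CPM + 10 of Ptgs2-expressing over Ptgs2 = 0 cells of set 1 for each measured gene (grey points) of the pathway lists with at least 4 measured genes (number in brackets); red ticks are list medians and dashed lines mark 1.5-fold. The NF-kB list has the highest median, 0.65, and the type 1 and cytotoxic list the lowest, -0.95.

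Other genes of the prostaglandin pathway were not called higher in members. Of 18 prostaglandin synthesis genes in the table besides Ptgs2, 4 had enough UMIs to be measured, and none was called in either direction. The cytosolic prostaglandin E synthase Ptges3 stood at 155 CPM in members and 152 CPM in Ptgs2 = 0 cells (0.03, -0.16 to 0.21). Hpgds, the haematopoietic prostaglandin D synthase, stood at 15.8 CPM in members and 13.1 CPM in Ptgs2 = 0 cells. Ptges, the inducible prostaglandin E synthase often paired with cyclooxygenase-2, had 8 UMIs over all 153 members (4.68 CPM) and 11 over the 718 Ptgs2 = 0 cells (1.71 CPM), a plain CPM ratio of 2.73 with an interval of 0.954 to 7.46. Ptgs1 had 3 UMIs in members and 4 in Ptgs2 = 0 cells, a ratio of 2.82 (0.413 to 16.7). Pla2g4a, the phospholipase that frees arachidonic acid, had 6 UMIs in members (3.51 CPM) and 5 in Ptgs2 = 0 cells (0.778 CPM), a ratio of 4.51 (1.15 to 18.7). All 3 were under the 100 UMIs that a call needs, and of them the interval of Pla2g4a alone lay above 1. The thromboxane synthase Tbxas1 had no UMI in either group, and the prostacyclin synthase Ptgis had 0 UMIs in members and 1 in Ptgs2 = 0 cells. Akr1b3 (-0.24) and Cbr1 (-0.23), reductases that act on prostaglandins, were the other measured genes. The rest, Pla2g6, Pla2g12a, Ptges2, Ptgds, Ptgr1, Ptgr2, Hpgd, Slco2a1 and Abcc4, had 0 to 19 UMIs each in members.

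Among the receptors for prostaglandins Ptger4 and Ptgir were measured. Ptger4, a prostaglandin E2 receptor that raises cAMP, stood at 62.5 CPM in members and 64.0 CPM in Ptgs2 = 0 cells (-0.03, -0.30 to 0.24). The prostacyclin receptor Ptgir stood at 35.1 CPM in members and 27.2 CPM in Ptgs2 = 0 cells (0.28, -0.06 to 0.61). Ptgdr2, the prostaglandin D2 receptor of mature ILC2s also called CRTH2, had 3 UMIs in members (1.75 CPM) and 51 in Ptgs2 = 0 cells (7.94 CPM), a plain ratio of 0.221 (0.0441 to 0.683) on too few UMIs for a call. Ptger1, Ptger2, Ptger3, Ptgdr, Ptgfr and Tbxa2r had 0 to 10 UMIs each in members. In the leukotriene branch, Lta4h, the hydrolase that makes leukotriene B4, was called lower (14.0 CPM in members and 26.3 CPM in Ptgs2 = 0 cells, -0.60), while its receptor Ltb4r1 was at 0.55. Alox5, which starts that branch, had no UMI in either group, and Alox5ap, Ltc4s, Ltb4r2, Alox12 and Alox15 had none in members. Mgst3 was at -0.18, and Mgst2 (17 UMIs in members and 24 in Ptgs2 = 0 cells) and Cysltr2 (26 UMIs in members and 59 in Ptgs2 = 0 cells) were under the limit of 100. The cysteinyl leukotriene receptor Cysltr1 stood at 99.4 CPM in members and 116 CPM in Ptgs2 = 0 cells.

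Of 11 measured ILC2 genes 5 were called higher and none lower, with a median log2 ratio of 0.55. A ratio over 1 was found for 8 of the 11. The others, Il17rb, Arg1 and Calca, described below, were on the lower side but short of 1.5-fold. Areg, the gene of amphiregulin, an epidermal growth factor family ligand, stood at 1144 CPM in members (1094 to 1196) and 510 CPM in Ptgs2 = 0 cells (493 to 528), a log2 ratio of 1.15. The median member held 4 Areg UMIs and the median Ptgs2 = 0 cell none, and 48 members lacked it. Il5, the eosinophil growth factor, stood at 317 CPM in members and 82.0 CPM in Ptgs2 = 0 cells (1.83, 1.67 to 1.99). It was absent from 101 members, and 32 members (20.9%, 14.8 to 28.2%) and 50 Ptgs2 = 0 cells (6.96%, 5.21 to 9.08%) held 3 UMIs or more. Il1rl1, which encodes the receptor for the alarmin interleukin-33, stood at 60.8 CPM in members and 11.7 CPM in Ptgs2 = 0 cells (1.71). At least 1 UMI of Il1rl1 or Klrg1, an antigen of mature ILC2s, was found in 35 members, or 22.9%, and in 53 Ptgs2 = 0 cells, or 7.38%, counted without thinning. Klrg1 had 27 UMIs in members and 28 in Ptgs2 = 0 cells, too few for a call. Ptgdr2, also on the ILC2 list and also too low for a call, went the other way, as given above. Hs3st1, a heparan sulfate sulfotransferase, had a log2 ratio of 1.13 and Rora one of 0.61. Gata3 had one of 0.29 and Il13, which drives mucus and eosinophil responses, one of 0.55, and neither was called.

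Calca, which encodes the neuropeptide CGRP, stood at 677 CPM in members (639 to 718) and 695 CPM in Ptgs2 = 0 cells (675 to 716). At least 3 UMIs of Calca were found in 78 members, or 51.0% (42.8 to 59.1%), and in 238 Ptgs2 = 0 cells, or 33.1% (29.7 to 36.7%), so the share and the summed level did not go the same way, and the highest member held 75 while the highest Ptgs2 = 0 cell held 194. These shares were counted without thinning, and members were the deeper cells. Il22, the epithelial cytokine of group 3 ILCs, stood at 292 CPM in members and 189 CPM in Ptgs2 = 0 cells (0.60), yet 138 members had no UMI of it and 1 cell held 41.0% of the members' UMIs. Il17f, a related type 3 cytokine, stood at 33.9 CPM in members and 7.16 CPM in Ptgs2 = 0 cells (1.36, 1.01 to 1.68), with 36.2% of the members' UMIs in 1 cell. At least 3 UMIs of Il5, Il13 and Il4 together were found in 72 members and 201 Ptgs2 = 0 cells, and 3 of Il22 in 8 members and 27 Ptgs2 = 0 cells. For comparison, 18 members had fewer than 3 UMIs of each of Cxcl2, Areg, Il5, Il13, Il4, Calca and Il22.

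Receptors and signalling genes outside these lists were also among the higher calls. Tnfrsf4, the costimulatory receptor OX40, stood at 70.1 CPM in members and 17.1 CPM in Ptgs2 = 0 cells (1.56, 1.27 to 1.85). Il2ra, the interleukin-2 receptor alpha chain, stood at 210 CPM in members and 121 CPM in Ptgs2 = 0 cells (0.74), and Il10ra had the same log2 ratio of 0.74. Hes1, a target of Notch, stood at 343 CPM in members and 192 CPM in Ptgs2 = 0 cells (0.81, 0.67 to 0.95), and Notch2 was at 0.82, so that 2 of 6 measured Notch genes were called. Of 12 measured cytokine and alarmin receptors, which include Il1rl1, Il2ra, Il10ra and Il4ra (0.65), 4 were called higher and none lower, with a median of 0.24. Of 7 type 2 effectors 2, Il5 and Areg, were called higher and none lower, with a median of 0.44. Checkpoint and neuroimmune receptors, with 3 of 11 genes called higher and 1 lower, had a median of 0.40, and Bcl2 family genes, with 2 of 11 higher and 1 lower, one of 0.29. Interferon response genes, with 1 of 7 higher and 3 lower, had a median of -0.50. Glycolysis genes (1 of 14 higher), amino acid transporters (0 of 9 called) and heat-shock chaperones (2 of 12 higher) had medians of 0.10, 0.13 and 0.11. ILC3 markers had 2 of 9 higher and 1 lower, with a median of -0.10, and ILC precursor markers 1 of 9 in each direction, with a median of 0.15. Hilpda, a lipid droplet protein induced by low oxygen, was at 0.92 and Rab27b, a GTPase of secretory vesicles, at 0.91.

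Of 7 measured type 1 and cytotoxic genes 4 were called lower and none higher, with a median of -0.95. Within cluster 1 of the clustering described below none of the 7 was called lower and 1 higher, with a median of 0. The limit of UMIs for a call was not applied again there. On CPM + 10 a gene with few UMIs in both groups has a log2 ratio near 0. These values therefore cannot show whether the difference was absent within that cluster. The chemokine Xcl1 stood at 8.77 CPM in members and 101 CPM in Ptgs2 = 0 cells (-2.56, -2.91 to -2.17), but 1 cell held 46.5% of the Xcl1 UMIs of the Ptgs2 = 0 group, and 151 members and 699 Ptgs2 = 0 cells had none. The granzyme genes Gzma (-1.52) and Gzmb (-0.95) and the chemokine Ccl5 (-1.24) had 2, 6 and 9 UMIs in members, too few for a close estimate, and Gzma was at -0.62 without the highest cell of each group. Of 16 homing and residency genes 2 were called higher, Cd69 and the lymph node homing receptor Ccr7 (107 CPM in members and 36.7 CPM in Ptgs2 = 0 cells, 1.32; 0.95 without the highest cell of each group and 0.56 without the barcodes rich in other cells' RNA described below), and 2 lower, Klf2 and Ccr6 (-0.59), with a median of -0.06. Among the largest and smallest ratios were also Zfp667 (1.33) and Ankrd33b on the higher side and Nfic (-1.02), G0s2 (-0.92), Fam111a (-0.91), Cd84 (-0.88) and Arhgap45 (-0.84) on the lower side. Cd7, a surface protein of T and NK cells, stood at 19.9 CPM in members and 65.0 CPM in Ptgs2 = 0 cells (-1.33). The T cell receptor complex gene Cd3g stood at 352 CPM in members and 534 CPM in Ptgs2 = 0 cells (-0.59), and Trbc2 at 289 CPM in members and 452 CPM in Ptgs2 = 0 cells (-0.63). Other T cell genes were low in both groups, with Cd3e at 7.60 CPM in members and 9.80 CPM in Ptgs2 = 0 cells.

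**Figure D3:**
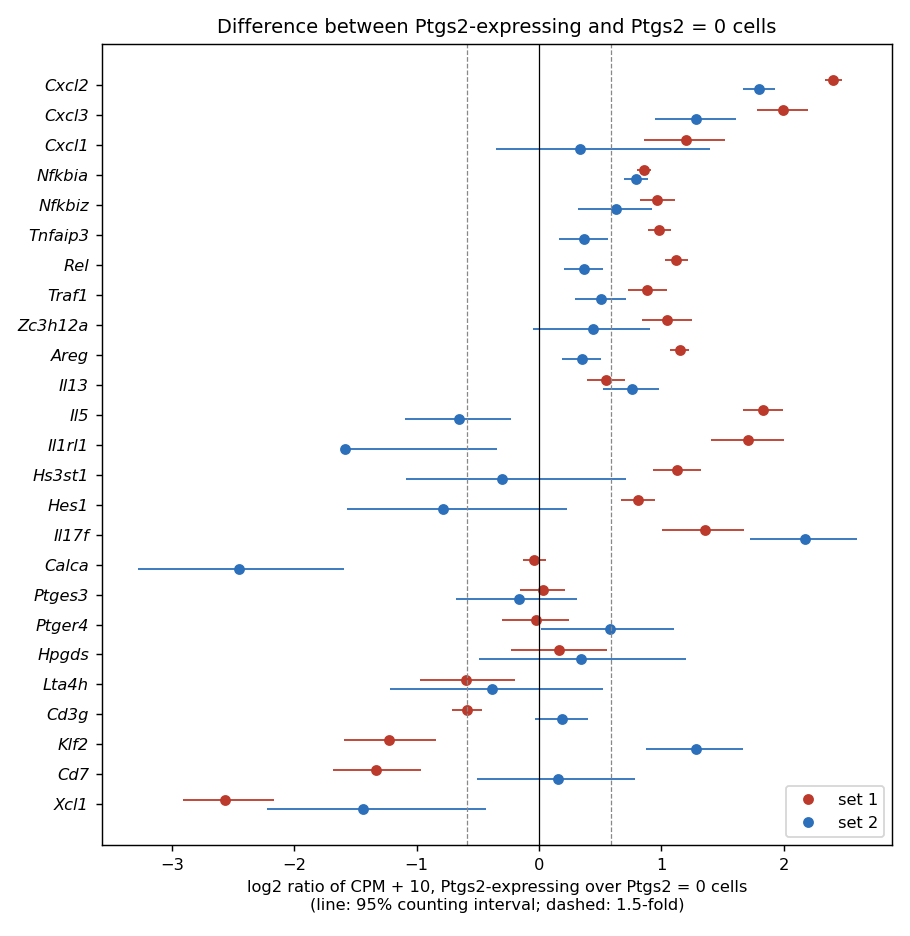
Log2 ratios of CPM + 10 of Ptgs2-expressing over Ptgs2 = 0 cells with 95% counting intervals (lines) for named genes in set 1 (red) and set 2 (blue); dashed lines mark 1.5-fold. Cxcl2, Cxcl3, Nfkbia and Il17f are past 1.5-fold in both sets, while Il5 and Il1rl1 are on opposite sides, at 1.83 and 1.71 in set 1 and at -0.65 and -1.59 in set 2.

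Some large ratios rested on single barcodes and on RNA of other cell types. The mast cell protease genes Cma1 and Cpa3 had log2 ratios of 2.53 and 1.73, but 1 member held 87.8% of the members' Cma1 UMIs and 84.8% of those of Cpa3. That barcode had 422 UMIs of mast cell granule genes among 11834, 3 of Ptgs2 and none of Gata3. Without the highest cell of each group the ratios were -0.05 and -0.11. Of 5 measured mast cell markers 4 were called higher, of which Kit (0.61) is also expressed by lymphoid cells, and their summed level over the list was 484 CPM in members and 163 CPM in Ptgs2 = 0 cells, with the receptor genes Fcer1a at 0 UMIs in both groups and Ms4a2 at 1 UMI in members and 0 in Ptgs2 = 0 cells. Cx3cr1, at 1.54, had 80.6% of its member UMIs in 1 cell and a ratio of 0.18 without it. The antigen presentation genes H2-Ab1 (1.59) and Cd74 (1.26) were part of 4 of 4 dendritic cell markers called higher, with sums of 300 CPM in members and 104 CPM in Ptgs2 = 0 cells, while Cd207, Flt3 and Itgax had no UMI in members. Without the barcodes rich in other cells' RNA, defined next, 1 of the 4 dendritic cell markers and 2 of the 5 mast cell markers were called higher, and H2-Ab1 was at 0.31. At least 10 UMIs of MHC class II genes were found in 4 members and 5 Ptgs2 = 0 cells. Leaving out all barcodes rich in mast cell, MHC class II, haemoglobin or keratin RNA, 6 members and 7 Ptgs2 = 0 cells, left 10 of 15 NF-kB genes called higher, with a median of 0.66. The keratin Krt14, which lymphocytes should lack, had a UMI in 31.7% of members and 27.9% of Ptgs2 = 0 cells after thinning, and stood at 59.0 CPM in members and 55.7 CPM in Ptgs2 = 0 cells. Over the keratinocyte list 2 of 6 markers were called higher, Krt1 (0.61, with 55.8% of the members' UMIs in 1 cell) and Sfn (0.61), and the sums were 271 CPM in members and 218 CPM in Ptgs2 = 0 cells. Without the barcodes rich in other cells' RNA 1 of the 6 was called higher. The part of such RNA in the shares of cells with a UMI was not tested. Of the erythroid markers 3 of 4 were called lower in members, with 1194 haemoglobin UMIs in 1 Ptgs2 = 0 cell. B cell, neutrophil, endothelial and melanocyte or Schwann cell markers had no gene with 100 UMIs.

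Within the members, several NF-kB genes, like some genes outside that pathway, stood higher the more Ptgs2 a cell held. From cells with 0, 1 to 2, 3 to 5, 6 to 11 and at least 12 Ptgs2 UMIs, Tnfaip3 ran through 422, 495, 647, 778 and 1265 CPM. Rel ran through 362, 504, 667, 766 and 1077 CPM over the same classes, and Traf1 through 139, 178, 227, 251 and 347 CPM. In these genes each class exceeded the one below it in value, although the counting intervals of the classes with 3 to 5 and 6 to 11 UMIs overlapped, and for Traf1 also those of 1 to 2 and 3 to 5 and those of 6 to 11 and at least 12. Nfkbiz did not keep the order at its low end, with 165, 153, 207, 341 and 536 CPM. The order was not particular to NF-kB genes. Gem ran through 623, 730, 865, 964 and 1629 CPM and Ier5 through 265, 379, 405, 429 and 764 CPM. The classes were cut on the Ptgs2 UMIs that chose the members, and the genes followed here had high ratios in that same comparison. In Tnfaip3, Rel and Traf1 the cells with 1 or 2 UMIs, which belong to neither group, lay between the groups. Areg was at 510, 713, 915, 881 and 1871 CPM, so that the classes of 3 to 5 and 6 to 11 UMIs did not differ beyond their counting intervals. Cxcl2 had no steady order, at 408, 635, 1681, 886 and 4775 CPM, and neither had Il5, at 82.0, 316, 345, 175 and 447 CPM. Of the 58 members with at least 10 Cxcl2 UMIs, 37 held at least 6 Ptgs2 UMIs, as did 86 of all 153 members. Ptges3 showed no such order, at 152, 145, 158, 171 and 131 CPM. Depth differed little across the member classes, with medians of 10782, 10259 and 10839 UMIs from the lowest class to the highest.

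**Figure D4:**
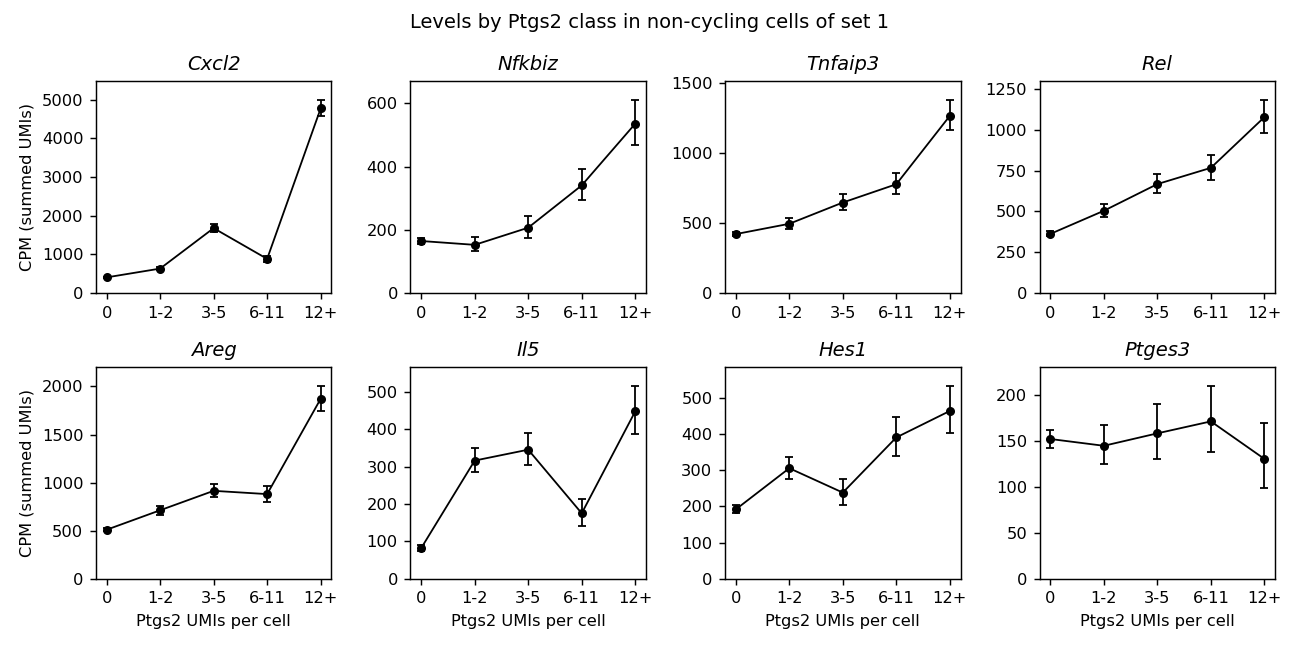
Summed level in CPM with 95% Poisson intervals for 8 genes in non-cycling cells of set 1 with 0, 1 to 2, 3 to 5, 6 to 11 and at least 12 Ptgs2 UMIs (718, 119, 67, 47 and 39 cells). Tnfaip3 and Rel are higher in each class than in the one before, while Ptges3 stays between 131 and 171 CPM.

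Members were spread over all clusters of set 1 but not evenly. The 990 non-cycling cells were clustered without Ptgs2 and the clusters kept as numbers with their leading genes, since they share every other gene with the comparison. Cluster 1, led by Il4, Atf3 and Nr4a2, held 71 members among 304 cells, or 23.4% (18.7 to 28.5%). Cluster 0, led by Il5, Il1rl1 and Calca, held 44 among 313, or 14.1% (10.4 to 18.4%). Cluster 3, led by Il22, Xcl1 and Fcer1g, held 18 among 134, or 13.4% (8.16 to 20.4%). Cluster 4, with Arl5c and Cd163l1 among its leading genes, held 14 among 54, or 25.9% (14.96 to 39.65%). Cluster 2, led by Dusp2, Klf2 and Tnf and highest in Cd3g at 853 CPM, held 6 among 185, or 3.24% (1.20 to 6.93%). Clusters 2 and 4 were shallower than the rest, with medians of 7037 and 6832 UMIs.

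**Figure D5:**
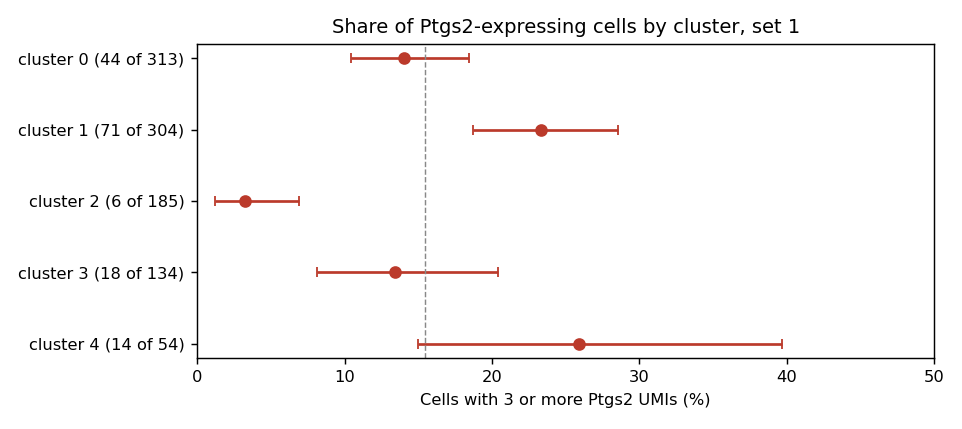
Share of non-cycling cells with at least 3 Ptgs2 UMIs in each cluster of set 1, in percent with 95% exact intervals (bars); labels give the cluster and its members of all its cells, and the dashed line is the share in all 990 cells, 15.5%. Cluster 2 lies below the line with 3.24% and cluster 1 above it with 23.4%.

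Cxcl2 was higher in members of each cluster, while Areg was not. In cluster 0 Cxcl2 stood at 2258 CPM in members and 244 CPM in Ptgs2 = 0 cells, and in cluster 1 at 1513 CPM in members and 542 CPM in Ptgs2 = 0 cells. In cluster 3 it stood at 3057 CPM in members and 813 CPM in Ptgs2 = 0 cells, and in cluster 4 at 4050 CPM in members and 403 CPM in Ptgs2 = 0 cells. The 6 members of cluster 2 stood at 5528 CPM and its Ptgs2 = 0 cells at 254 CPM. At least 10 Cxcl2 UMIs were found in 3 of the 14 members of cluster 4 and in 2 of the 6 of cluster 2, so these levels rest on few cells. Tnfaip3 was also on the higher side in members of all 5 clusters, at 634 CPM in members and 285 CPM in Ptgs2 = 0 cells of cluster 0 and at 991 CPM in members and 660 CPM in Ptgs2 = 0 cells of cluster 1. Rel was so in all 5 as well. Nfkbia was not higher in cluster 3, at 1518 CPM in members and 1553 CPM in Ptgs2 = 0 cells. Il5 was mostly in cluster 0, which it helped define and where it stood at 849 CPM in members and 158 CPM in Ptgs2 = 0 cells, and 14 of the 16 members with at least 10 Il5 UMIs lay there. Il1rl1 was likewise found there, at 181 CPM in members and 25.8 CPM in Ptgs2 = 0 cells. Areg stood at 1441 CPM in members and 437 CPM in Ptgs2 = 0 cells of cluster 0 but at 552 CPM in members and 567 CPM in Ptgs2 = 0 cells of cluster 3. In cluster 2 Areg stood at 95.3 CPM in members, on 4 UMIs, and at 205 CPM in Ptgs2 = 0 cells. Within cluster 1 alone, 71 members were set against 182 Ptgs2 = 0 cells. The counts and ratios given next did not apply the limit of UMIs again within the cluster. Of 15 NF-kB genes 2 were called higher in place of 10, with a median of 0.42, and the early response median was 0.05. The ILC2 list had 5 of 11 genes called higher and none lower, with a median of 0.54. Over all 6149 genes 254 were called higher and 158 lower, with a median of 0.03. There Hes1 was at 0.06, Xcl1 at -0.08 and Cd7 at -0.10, Cxcl3 at 0.58 and Ankrd33b at 0.51 fell short of 1.5-fold, and Calca was past it at 0.67, while Klf2 was at -1.43 and Cxcl2 at 1.46. How much of each difference lies between clusters, which were built from the same genes, was not tested.

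The same rule in set 2, whose values did not choose the members, gave 39 Ptgs2-expressing cells and 3176 with no Ptgs2. Of 7621 genes 6.8% were called higher and 10.9% lower there, larger shares than in set 1, with 271812 UMIs in the smaller group. Of 6059 genes measured in both sets 31 were higher in both, which is 16.6% of the 187 higher in set 1 and 8.86% of the 350 higher in set 2, and 15 were higher in set 1 and lower in set 2. On the lower side, 12 of the 103 lower in set 1 were also lower in set 2, where 601 were lower in all, and 13 were higher. The 31 include Cxcl2, Cxcl3, Il17f, Nfkbia, Nfkbiz, Cd69 and Ier2. Cxcl2 stood at 1880 CPM in Ptgs2-expressing cells of set 2 and 532 CPM in its Ptgs2 = 0 cells (1.80), and Cxcl3 at 276 CPM in its Ptgs2-expressing cells and 107 CPM in its Ptgs2 = 0 cells (1.28). Nfkbia was at 0.79 and Nfkbiz at 0.63. The NF-kB list had 2 of 16 genes called higher in set 2 and a median of 0.24. The ILC2 list had 1 of 11 called higher and 3 lower with a median of -0.30, and Calca stood at 22.1 CPM in Ptgs2-expressing cells of set 2 and 166 CPM in its Ptgs2 = 0 cells. No test of the difference between the sets was run.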

How the data were processed

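The deposited table holds UMI counts of 18786 genes in 5246 cells, not normalized by the authors; the submitters' processing notes name the mm10 build, Cell Ranger 3.1.0 and Seurat 4.1.0, without their settings. Members and gene lists were chosen with earlier results of these data known. UMIs were summed over the cells of a group and given as CPM. Ratios used CPM + 10, with exact binomial bounds, genes with at least 100 UMIs and a size of 1.5-fold; Ptgs2, mt- and the 3 cycling genes were left out. Shares carry Clopper-Pearson bounds. Intervals cover counting error only. Each set is without replicates, which allows no test. The rule for named genes took the 15 largest and 15 smallest ratios outside the gene classes left out, the prostaglandin and leukotriene genes, up to 4 genes of each other list of 23 pathway lists and genes of 17 marker lists; Nfkbia, Icam1, Ier2 and other genes outside that rule were chosen after their values were seen. Many genes picked from the pathway and marker lists, and 1 leading gene of a cluster, are not reported here. Clustering used scanpy 1.11.5 with 2000 variable genes, 30 components, 15 neighbours and resolution 0.5. Scrublet called 7 of 1441 cells of set 1, or 0.486%, so doublets may remain, and called cells were kept. Thinning to 6949 UMIs left out 11 members and 216 Ptgs2 = 0 cells. TMM factors (edgeR 4.0.16) served as another scaling and moved the median gene by 0.0084 (log2). Ratios were tested on simulated counts drawn as independent Poisson values. Such counts lack the gathering of UMIs in single cells, so they check the calculation alone. Gene positions are from GENCODE on GRCm38. Total counts per cell ranged between 1937 and 29944 UMIs in members and between 508 and 20558 in Ptgs2 = 0 cells.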

Additional observations from a re-analysis of the deposited data

Results flagged for a closer look

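For 8 named genes the log2 ratio of Ptgs2-expressing over Ptgs2 = 0 cells was past 1.5-fold in opposite directions in the 2 sets, with both counting intervals clear of no difference. The difference between the sets was not tested, and set 2 had 39 Ptgs2-expressing cells. Over all 6059 genes measured in both sets, 15 were called higher in set 1 and lower in set 2, and 13 the other way. Il5 had a log2 ratio of 1.83 in set 1 and -0.65 in set 2, and Il1rl1, the interleukin-33 receptor, one of 1.71 in set 1 and -1.59 in set 2, where no Ptgs2-expressing cell had a UMI of it. Cks2, a cell cycle subunit, was at 0.78 in set 1 and -0.91 in set 2. In the other direction, Klf2 was at -1.23 in set 1 and 1.28 in set 2, with 13.4 CPM in Ptgs2-expressing cells of set 1 and 188 CPM in those of set 2. The leukocyte chemoattractant Il16 was at -1.06 in set 1 and 0.95 in set 2, and the receptor Cd160 at -0.92 in set 1 and 1.66 in set 2. Lgals3bp was at -0.83 in set 1 and 0.87 in set 2, and the survival gene Bcl2 at -0.61 in set 1 and 1.24 in set 2. Il16, Cd160, Lgals3bp and Bcl2 had few UMIs in Ptgs2-expressing cells of set 1, too few for a close estimate.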

How the results depend on the processing

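Of 846 gene ratios (47 genes under 18 settings) 652 stayed within the counting interval of the value reported, 173 moved outside it and 21, of 6 genes called at 1.5-fold, changed sign; 7 genes that were not called (Calca, Gata3, Hpgds, Il13, Ltb4r1, Ptger4 and Ptges3) also changed sign under 1 or more settings, among them Il13 at -0.39 and Calca at 0.67 within cluster 1. The 201 higher and 112 lower genes of 6149 became 324 and 341 with CPM + 1 and 33 and 10 at 2-fold. Within cluster 1 only 2989 genes reached 100 UMIs, of which 95 were called higher and 31 lower. Of these, 39 and 6 were among the 201 and 112. Lower genes numbered 197 of 4524 when groups were chosen again on thinned cells, and 42 of these were among the 112. On thinned cells with the groups kept they numbered 125 of 4551, with 47 among the 112. Among cells with at least 3 Gata3 UMIs they numbered 74 of 4744, with 33 among the 112. Without the highest cell of each gene in each group, 139 of 6002 genes were called higher, all among the 201. On the lower side 167 were called there, with 102 among the 112. Fewer genes reached the limit of UMIs under these settings. The share of Ptgs2-expressing cells was 19.3% with a limit of 2 UMIs and 10.8% with a limit of 5. Cpa3 was at -0.37 with a Ptgs2 limit of 5, -0.10 on groups chosen again after thinning, -0.049 without any cycling UMI, -0.15 without called doublets, -0.11 within cluster 1, -0.14 without barcodes rich in other cells' RNA, -0.11 without its highest cells and -0.32 among cells with 3 Gata3 UMIs. Cma1 was at -0.16 on groups chosen again after thinning, -0.10 without any cycling UMI, -0.057 without called doublets, -0.11 within cluster 1, -0.057 without those barcodes and -0.052 without its highest cells. Within cluster 1 and among cells with 3 Gata3 UMIs, Gzma was at 0.17 and 0.025, Ifitm1 at 0.23 and 0.025 and Cd160 at 0.52 and 0.49, and Il22 was at -1.40 within cluster 1; the cause was not tested. The settings without those barcodes, without the highest cells of a gene and with 3 Gata3 UMIs were chosen after seeing the data. No paired analysis was possible because all members came from 1 cell set without replicates. Genes with under 100 UMIs over both groups, which include most prostaglandin genes, were not called, and their counting intervals are wide.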
